A study of Mus musculus with 59 samples.

Results

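The enzymes described here make asparagine, proline, alanine, aspartate and cysteine, and were picked by symbol: Asns for asparagine, Aldh18a1 and Pycr1 for proline, Gpt and Gpt2 for alanine, Got1 and Got2 for aspartate, and Cbs and Cth for cysteine. All 9 symbols had a row among the 19613 genes measured. The log2 values of these genes by kind of serum and by run of arrays were known when they were picked, so their serum differences below are a description, without a p-value, and support nothing. Asns, Aldh18a1, Pycr1, Gpt2 and Got1 are also among the genes that the study itself chose, on most of the same arrays, for its classifier.

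The study exposed indicator cells to mouse serum for 24 h and read their transcriptome on Affymetrix mouse exon arrays. The indicator cells were embryoid bodies containing spinal motor neurons, grown from a single embryonic stem cell line, HBG3, in which the HB9 promoter drives eGFP in motor neurons. In the carrier group (29 arrays) the serum came from male mice hemizygous for a transgene of human SOD1 with a glycine-to-alanine mutation, taken before symptoms, and in the non-carrier group (30 arrays) from littermates without the transgene. All serum donors were of mixed C57BL/6 and SJL descent, and no cell in the dish was labelled as carrying the mutation. The labels' time points, 9 weeks for 53 arrays and 10 weeks for 6, fall within the age range of the donors in the study's methods and are taken as donor age. The methods count serum samples by mouse, but the labels tie no array to a mouse, so errors given here measure the spread between arrays. Embryoid bodies hold several cell types, so fewer cells of a type and less RNA per cell cannot be told apart.

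Cells can build asparagine, proline, alanine and aspartate from intermediates of glycolysis and the citric acid cycle, with glutamate and glutamine as nitrogen donors. Asparagine synthetase is a classical target of the amino acid response: when amino acids run short or the endoplasmic reticulum is stressed, phosphorylation of eIF2α favours translation of the transcription factor ATF4, which raises genes of amino acid synthesis and import. The enzymes of the alanine and aspartate branches exist in a cytosolic form (Gpt, Got1) and a mitochondrial form (Gpt2, Got2). In the cysteine branch, Cbs joins homocysteine to serine and Cth splits the product to cysteine.

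ATF4 binds composite sites of the form TGATGNAA. These letters were looked for on both strands of the 250 bases before the start listed for each gene's promoter. RefSeq (GRCm38.p6) gave such a stretch for 7 of the 9 genes, all but Gpt and Cth. The letters were in 3 of the 7, those of Asns, Pycr1 and Got1, against 3.45% of 32851 mouse promoters of the same length. A match is a description of the sequence and not a shown binding site. The stretches of these 3 genes are printed with the match in capitals, beside that of Gpt2, which had no match and is shown because its serum difference was as large as those of Asns and Pycr1.
Asns, chr6:7693210-7693459, minus strand: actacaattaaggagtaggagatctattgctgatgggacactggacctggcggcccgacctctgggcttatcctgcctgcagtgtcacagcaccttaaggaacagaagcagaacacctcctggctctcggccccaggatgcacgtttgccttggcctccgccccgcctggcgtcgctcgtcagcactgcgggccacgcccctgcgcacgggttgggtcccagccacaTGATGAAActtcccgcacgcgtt
Pycr1, chr11:120643749-120643998, minus strand: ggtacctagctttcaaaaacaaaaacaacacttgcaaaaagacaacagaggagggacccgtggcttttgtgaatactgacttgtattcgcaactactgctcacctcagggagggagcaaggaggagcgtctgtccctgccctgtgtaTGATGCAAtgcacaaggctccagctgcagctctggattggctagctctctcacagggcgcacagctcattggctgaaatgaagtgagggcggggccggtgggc
Got1, chr19:43524606-43524855, minus strand: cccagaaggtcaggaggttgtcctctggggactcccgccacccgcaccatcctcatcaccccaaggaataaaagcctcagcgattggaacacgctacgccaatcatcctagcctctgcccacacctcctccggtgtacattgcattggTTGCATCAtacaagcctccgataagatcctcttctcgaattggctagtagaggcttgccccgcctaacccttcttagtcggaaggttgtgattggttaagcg
Gpt2, chr8:85492326-85492575, plus strand: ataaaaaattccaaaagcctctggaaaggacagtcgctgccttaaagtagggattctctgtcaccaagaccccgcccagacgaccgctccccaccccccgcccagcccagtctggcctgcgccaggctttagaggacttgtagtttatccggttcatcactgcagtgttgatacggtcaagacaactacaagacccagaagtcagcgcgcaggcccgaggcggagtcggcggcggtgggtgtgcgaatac
The match of Asns, TGATGAAA, lay 23 to 16 bases before the start. That of Pycr1, TGATGCAA, lay 103 to 96 bases before it, and that of Got1 lay 102 to 95 bases before it and reads TTGCATCA as printed, which is TGATGCAA on the other strand. TGATGAAA was in 0.883% and TGATGCAA in 0.791% of all the promoters. No match was in the stretches of Aldh18a1, Got2 and Cbs. That of Cbs, chr17:31637206-31637455 on the minus strand, reaches into the gene as annotated, which starts at base 31637233.

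Values are log2 of the deposited intensity, and a difference is carrier minus non-carrier serum. Probes differ in brightness, so levels of different genes are not compared. No batch is given in GEO's labels, so the names and number blocks of the array titles were used to set runs. This gave 9 runs: A, B, E, F and the 10-week run with 3 carrier and 3 non-carrier arrays each, C with 6 and 5, D and the motorneuron run with 3 and 4, and the HB9MNs run with 2 and 2. Run C is larger than the groups the study describes and so holds more than 1 batch of cells. The median linear intensity of an array was 151 to 183 in the carrier group and 153 to 177 in the non-carrier group. By Grubbs' test on the mean correlation of each array with its run, an array of run E with carrier serum (mean r 0.979) and an array of run C with non-carrier serum (0.990) stood apart. Of the motor neuron genes, Mnx1, Isl1 and Chat had mean log2 values of 8.86, 10.54 and 9.02 in the carrier group, with no other tissue on these arrays to set them against, and Slc18a3 and Nkx6-1 had no row.

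With the run as a block, limma called 457 genes, 2.33% of all, at an adjusted p under 0.05, and 323 of them, 1.65%, were lower with carrier serum. Lower genes were 70.7% of the calls, 59.5% after quantile normalization, 48.9% without the run C array that stood apart and 35.5% with 4 motor neuron genes as covariates. Among the 9 enzymes, 5 were called and all of these were lower: Asns, Aldh18a1, Pycr1, Gpt2 and Cth. None of the 9 was called higher, against 0.683% of all genes. Since this contrast chose the genes, nothing is read from the count. The serum differences of the 9 had a median of -0.24, against 0.016 over all genes. A difference below -0.2 was found for 5 of the 9 and for 0.291% of all genes.

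**Figure D1:**
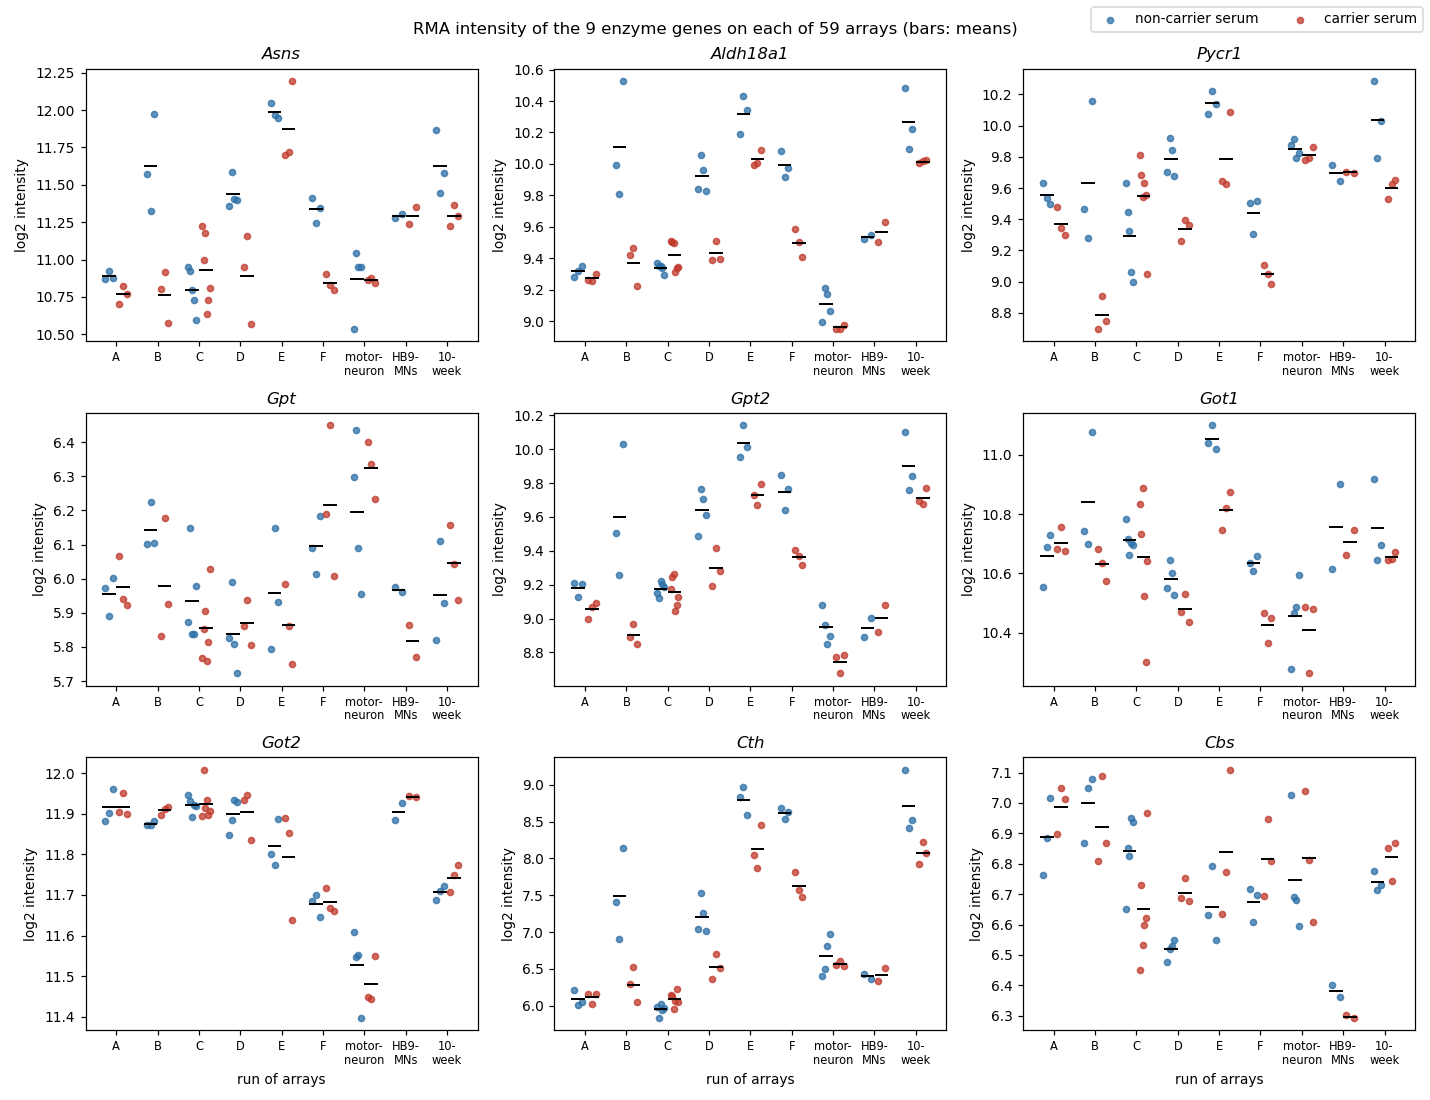
Log2 intensity (vertical axis, a separate scale for each gene) of the 9 enzyme genes on each of the 59 arrays, by run of arrays (horizontal axis) and kind of serum; points are arrays and black bars are means of a run and serum. Levels moved between runs for every gene, and in runs B, D and F the carrier arrays of Asns, Aldh18a1, Pycr1, Gpt2 and Cth lay below all non-carrier arrays.

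Asns, which makes asparagine from aspartate and glutamine, lies on chromosome 6. Over all runs its log2 intensity had a lowest value of 10.57, a median of 10.90 and a highest value of 12.19 with carrier serum, and 10.54, 11.32 and 12.05 with non-carrier serum. With all runs pooled the groups overlapped; run means ranged from 10.83 to 11.93, and the run accounted for 64.4% of the variance. Within runs, Asns was 0.24 lower with carrier serum (-0.24, SE 0.060, 95% interval -0.36 to -0.12), or 15.2% lower in linear intensity. The mean was lower in 7 of 9 runs. In run B the carrier arrays read 10.58, 10.80 and 10.92 and the non-carrier arrays 11.33, 11.57 and 11.97. In run F they read 10.80, 10.83 and 10.90 against 11.25, 11.35 and 11.41. In these runs, and in A, D and the 10-week run, no carrier array reached a non-carrier array. In run E the carrier arrays read 11.70, 11.72 and 12.19 and the non-carrier arrays 11.94, 11.97 and 12.05, and the 12.19 came from the array that stood apart; without it the difference in run E went from -0.11 to -0.28 and the groups no longer overlapped.

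The proline branch begins with Aldh18a1, the synthase that turns glutamate into pyrroline-5-carboxylate, and ends with Pycr1, the mitochondrial reductase that turns it into proline. Aldh18a1 ran from 8.95 through a median of 9.46 to 10.09 with carrier serum, and from 8.99 through 9.82 to 10.53 with non-carrier serum. Its difference within runs was -0.24 (SE 0.046, 95% interval -0.34 to -0.15), and in 6 runs, B, D, E, F, motorneuron and 10-week, all carrier arrays lay below all non-carrier arrays. In run D, for example, the carrier arrays read 9.39, 9.40 and 9.51 and the non-carrier arrays 9.83, 9.84, 9.96 and 10.06. Pycr1 ran from 8.70 through 9.54 to 10.09 with carrier serum, and from 9.00 through 9.69 to 10.29 with non-carrier serum. Its difference was also -0.24 (SE 0.063, 95% interval -0.36 to -0.11). The reductase had the wider spread of this pair, with an SD within run and serum of 0.190 against 0.120 for Aldh18a1, and its run differences reached from -0.85 in run B to 0.25 in run C. In run B its carrier arrays read 8.70, 8.75 and 8.90 and its non-carrier arrays 9.28, 9.47 and 10.16. These are separate groups, but the non-carrier arrays are far apart from each other.

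In the alanine branch 1 of the 2 forms was called lower, and in the aspartate branch neither form was called. Gpt2, the mitochondrial alanine transaminase, ran from 8.68 through 9.18 to 9.80 with carrier serum and from 8.85 through 9.37 to 10.14 with non-carrier serum. It was lower by 0.24 within runs (-0.24, SE 0.041, 95% interval -0.32 to -0.16), with a lower mean in 8 of 9 runs and full separation in 6, A, B, D, E, F and motorneuron. In run F the carrier arrays read 9.31, 9.37 and 9.40 and the non-carrier arrays 9.64, 9.76 and 9.85. Gpt, the cytosolic form, ran from 5.75 through 5.94 to 6.45 with carrier serum and from 5.72 through 5.98 to 6.43 with non-carrier serum. Its difference was -0.0085 (SE 0.034, 95% interval -0.077 to 0.060), with a lower mean in 4 of 9 runs. Gpt is a dim gene on these arrays, at the 27.8th percentile of mean intensity over all genes.

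Got1, the cytosolic aspartate transaminase, ran from 10.26 through 10.65 to 10.89 with carrier serum and from 10.28 through 10.68 to 11.10 with non-carrier serum. Its difference of -0.10 (SE 0.030, 95% interval -0.17 to -0.043) missed the threshold, although its mean was lower in 8 of 9 runs. In run E the carrier arrays read 10.75, 10.82 and 10.87 and the non-carrier arrays 11.02, 11.04 and 11.10, and in runs B and F the groups did not overlap either. Got2, the mitochondrial form, ran from 11.44 through 11.90 to 12.01 with carrier serum and from 11.40 through 11.88 to 11.96 with non-carrier serum. Its difference was 0.0035 (SE 0.015, 95% interval -0.026 to 0.033), the narrowest interval of the 9. Got2 was the steadiest of the 9 within a run and serum, with an SD of 0.0519 against a median of 0.129 over all genes, while the run accounted for 90.5% of its variance. Differences between the forms of either pair were not tested.

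Cth, the lyase that releases cysteine, had the largest difference of the 9, and Cbs, the enzyme before it, had none that passed the threshold. Cth ran from 5.96 through 6.52 to 8.45 with carrier serum and from 5.83 through 6.99 to 9.20 with non-carrier serum. Within runs it was lower by 0.42 (-0.42, SE 0.085, 95% interval -0.59 to -0.25), or 25.3% in linear intensity. Its level moved more between runs than that of any other of the 9, with run means from 6.03 to 8.46 and 86.1% of the variance due to the run. In the 4 runs with the lowest non-carrier means, C (5.95), A (6.09), HB9MNs (6.40) and motorneuron (6.67), the differences were 0.15, 0.024, 0.022 and -0.11. In the other 5, D (7.21), B (7.49), F (8.62), 10-week (8.71) and E (8.80), they were -0.68, -1.20, -0.997, -0.64 and -0.68, and no carrier array reached a non-carrier array. The non-carrier arrays enter both the level and the difference, so the pattern is given without a correlation. Whether a drop could be measured at the low intensities of the first 4 runs was not tested. In run F the carrier arrays read 7.47, 7.57 and 7.82 and the non-carrier arrays 8.53, 8.64 and 8.69, a 1.996-fold difference in linear intensity. Run B, with carrier arrays at 6.04, 6.29 and 6.53 and non-carrier arrays at 6.91, 7.41 and 8.14, had a 2.30-fold difference.

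Cbs ran from 6.29 through 6.77 to 7.11 with carrier serum and from 6.36 through 6.72 to 7.08 with non-carrier serum. Its difference was 0.032 (SE 0.037, 95% interval -0.043 to 0.11), with run differences from -0.19 in C to 0.19 in D. In run D the carrier arrays (6.68, 6.69 and 6.75) lay above the non-carrier arrays (6.48, 6.52, 6.53 and 6.55), as did those of 10.1% of all genes, and in the HB9MNs run they lay below. In the cysteine branch, Cth was lower in 6 of 9 runs and Cbs in 3, and a difference between these genes was not tested. Neither gene is bright on these arrays, with Cth at percentile 45.3 and Cbs at percentile 40.6 of mean intensity over all genes.

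**Figure D2:**
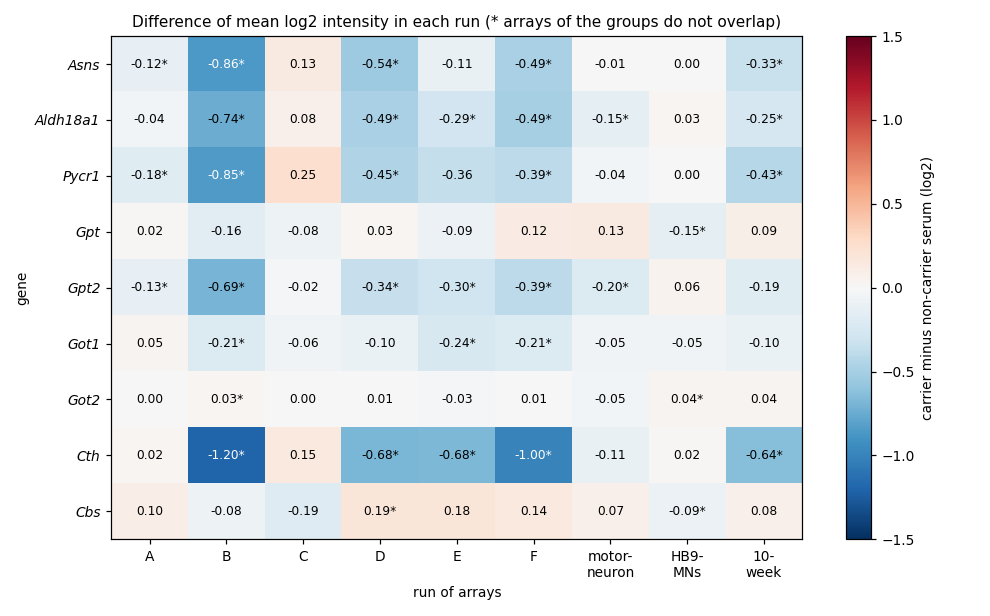
Carrier minus non-carrier difference of mean log2 intensity (colour and printed number) for each of the 9 genes (rows) in each of the 9 runs (columns); an asterisk marks runs where the arrays of the groups do not overlap. Differences of Asns, Aldh18a1, Pycr1, Gpt2 and Cth were deepest in run B, from -0.69 to -1.20, and near 0 in the HB9MNs run.

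The runs differed in how many of the 9 genes had all carrier arrays below all non-carrier arrays. There were 6 in run B, where 5.26% of all genes did so, and 6 in run F, where 13.1% did; in both runs these were Asns, Aldh18a1, Pycr1, Gpt2, Got1 and Cth. Run D had 5 (7.64% of all genes), run E had 4 (5.08%) and the 10-week run had 4 (8.3%). Run A had 3 (8.07%) and the motorneuron run 2 (1.69%). The HB9MNs run had 2, Gpt and Cbs, where 31.7% of all genes were separated in that direction, as a group of 2 arrays is easily separated. The reverse, all carrier arrays above, was seen for Got2 in run B (5.27% of all genes) and in the HB9MNs run (17.2%), and for Cbs in run D. In run C, the largest, none of the 9 was separated in either direction, and 0.413% of all genes had all carrier arrays below. There the means of Asns, Aldh18a1, Pycr1 and Cth were higher with carrier serum, by 0.13, 0.079, 0.25 and 0.15, all with overlapping arrays. Run C mixes batches of cells, and whether its arrays were separated within a batch was not counted. The 10-week run, the only run of that time point, gave differences of -0.33 for Asns, -0.25 for Aldh18a1, -0.43 for Pycr1, -0.19 for Gpt2 and -0.64 for Cth, within the range of the 9-week runs.

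A term for different serum effects in different runs was called by limma for 25 genes, 0.127% of all. It included Asns, Aldh18a1 and Cth, whose F values were 5.74, 8.81 and 8.01, while the F values of Pycr1 and Gpt2 were 5.58 and 5.14 and the median over all genes was 1.03. Got1, Got2, Gpt and Cbs had F values between 0.351 and 1.92. The spread over runs entered the choice of these genes, so this is a description too. The calls depended on run C. Without it, limma called this term for 0 genes, among them none of the 9. By limma, 1324 genes and 5 of the 9 then had an unadjusted p under 0.05, against 1557 and 5 with all runs. With run C parted into 2 blocks the term was called for 28 genes and for 4 of the 9, Pycr1 being added. For Asns the call was also lost without run A, B, D, F or HB9MNs or without the highest non-carrier array of run B, while Aldh18a1 and Cth kept it in each of these settings.

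Single arrays also weighed on single runs. In run B the highest non-carrier array was the same for Asns, Aldh18a1, Pycr1, Gpt2, Got1 and Cth. Without it, the run B differences were -0.69 for Asns, -0.53 for Aldh18a1, -0.59 for Pycr1, -0.48 for Gpt2, -0.090 for Got1 and -0.87 for Cth, and all 6 genes were still separated. Without the run E array that stood apart, Pycr1 in run E went from -0.36 to -0.51 and Cth from -0.68 to -0.84. Over all runs, the calls of Aldh18a1, Gpt2 and Cth were kept when any 1 run was left out. Asns was not called without run B, D, F or the 10-week run, and Pycr1 was not called without any of these or without A or E. With runs E and F both left out, limma called 59 of all genes, and Gpt2 was the only one of the 9. An unadjusted p under 0.05 was then found for 2435 of all genes and for 6 of the 9. As this contrast chose the 9, nothing is read from these counts. Without a term for the run, limma called none of the 9 and none of all genes (unadjusted p under 0.05 for 4 and 805). In every one of these settings the differences of the 5 called genes and of Got1 stayed negative.

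The genes that were lower with carrier serum also moved together from array to array within the runs as set here. For this, each run and serum was centred on its own mean, which removes the serum difference and leaves 41 residual degrees of freedom over 59 arrays. Among Asns, Aldh18a1, Pycr1, Gpt2, Got1 and Cth, Pearson's r over the 15 pairs had a lowest value of 0.396, a median of 0.627 and a highest value of 0.846, the last between Aldh18a1 and Gpt2. The 21 pairs that include Gpt, Got2 or Cbs ran from -0.328 to 0.335 with a median of -0.059. The genes were put in these sets with their values known, and points share arrays and normalization, so no p is given. Run C was centred whole, although it mixes batches of cells, and r was not recomputed with run C parted. Nor was r recomputed without the highest non-carrier array of run B, the same array for every gene of the first set. The part of batches within run C and of that array in these r values, and in those with other genes below, was not tested. Within branches, r was 0.692 between Aldh18a1 and Pycr1, 0.030 between Gpt and Gpt2, -0.059 between Got1 and Got2, and 0.070 between Cbs and Cth. With arrays centred on their medians, the sign turned for Gpt and Gpt2 (-0.058) and for Got1 and Got2 (0.16). Gpt and Cbs were at percentiles 27.8 and 40.6 of mean intensity, and the part of noise in their r was not tested.

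**Figure D3:**
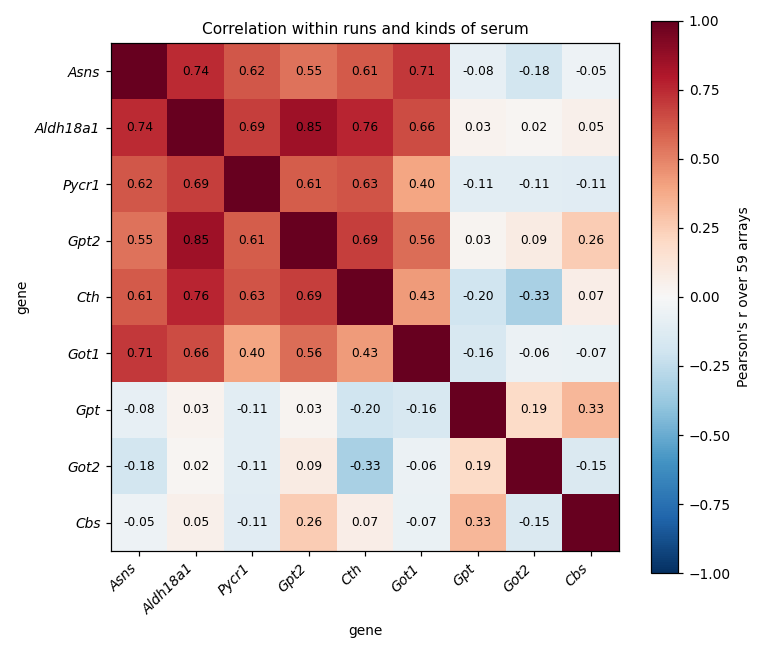
Pearson's r (colour and printed number) between each pair of the 9 genes over 59 arrays, after each run and serum was centred on its mean. Run C, which mixes batches of cells, was centred whole. The 15 pairs among Asns, Aldh18a1, Pycr1, Gpt2, Cth and Got1 lie between 0.396 and 0.846 and the pairs with Gpt, Got2 or Cbs between -0.328 and 0.335.

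Over all 19612 other genes, Asns was most like Sars (r = 0.919) and Nars (0.883), the seryl and asparaginyl tRNA synthetases, followed by Psat1 (0.859), Bcat1 (0.851) and Nub1 (0.817). For comparison, 5% of all genes had an r with Asns above 0.455. Aldh18a1 was most like Otub2 (0.862), Bcat1 (0.859) and Slc1a4 (0.852), a carrier of neutral amino acids. Pycr1 was most like Mthfd1l (0.879), a mitochondrial enzyme of one-carbon metabolism, Hhip (0.877) and Atf5 (0.848). The gene most like Gpt2 was Slc6a9 (0.875), a glycine transporter, and then came Aldh18a1 (0.846) and P2rx3 (0.844). Cth was most like Iars (0.859) and Lars (0.856), the isoleucyl and leucyl tRNA synthetases, and Slc7a3 (0.857), a transporter of cationic amino acids. Got1 was most like Prkacb (0.856), Bcat1 (0.842) and Srpr (0.824).

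Of the other 3 genes, Cbs was most like Csmd1 (0.756), Erbb3 (0.739) and Lama4 (0.732), and Got2 was most like Eif3f (0.826), Nelf (0.761) and Mtap6 (0.758). Gpt was most like Slc2a8 (0.738), Pkdcc (0.728) and Fam73b (0.718). Several likenesses depended on the scaling of the arrays. After quantile normalization the 3 of Gpt were 0.237, 0.485 and 0.254, those of Got2 with Nelf and Mtap6 were 0.588 and 0.689, those of Cbs with Erbb3 and Lama4 were 0.591 and 0.574, and that of Pycr1 with Hhip was 0.767; Eif3f (0.863) was then the gene most like Got2.

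Enzymes around the 9 were counted from lists, 52 genes with a row in all. Of these, 29 were lower, against 38.9% of all genes. By limma, 4 were called lower and 0 called higher, against 1.65% and 0.683% of all genes (14 had an unadjusted p under 0.05 in either direction, and 4057 of all genes). The median difference of the 52 was -0.0095, against 0.016 over all genes. Beside Pycr1 and Aldh18a1, neither Oat (-0.029), which makes pyrroline-5-carboxylate from ornithine, nor Prodh (0.039), which breaks proline down, was called. Of the 8 proline and ornithine enzymes, 4 were lower and 1 was called lower by limma. This was Odc1, the first enzyme of polyamine synthesis (-0.10, SE 0.029, adjusted p 0.0443). Odc1 was not called in 12 of 25 alternatives, among them run as a random block, arrays centred on their medians, and the fits without the carrier array of run E that stood apart, without the highest non-carrier array of run B, or without run A, B, D, E, F or 10-week. None of the 8 asparagine and aspartate genes was called, among them Asrgl1 (-0.029) and Aspg (0.038), which break asparagine down, and Ass1 (0.015), which uses aspartate.

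Among 13 glutamate and transamination enzymes, 7 were lower, of which 2 were called. They were Bcat1, the cytosolic branched-chain transaminase (-0.19, SE 0.035, adjusted p 0.00200), and Psat1, the serine-branch transaminase (-0.20, SE 0.053, adjusted p 0.0311). Bcat1 kept its call with any 1 run left out, and Psat1 lost it without run A, B, D, E, F or 10-week. Of the 3 serine enzymes measured, limma called Shmt2, the mitochondrial hydroxymethyltransferase, lower (-0.24, SE 0.052, adjusted p 0.00592). Shmt2 kept its call with any 1 run left out, and Phgdh (-0.093, adjusted p 0.0925) was not called. None of the 20 genes of the methionine cycle and of cysteine use was called. Their differences ran from -0.071 for Gclm, a subunit of the enzyme that starts glutathione synthesis from cysteine, to 0.12 for Bhmt2. Within the cysteine branch and these 20 genes, Cth was the only gene called.

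The median difference of 14 genes of the ATF4 response was -0.27. Of these, 13 were lower, against 38.9% of all genes, and 11 were called lower, against 1.65% of all genes. They included Atf4 itself (-0.25, SE 0.051, adjusted p 0.00329), Trib3 (-0.28, SE 0.060, adjusted p 0.00570), a pseudokinase, and Slc7a11 (-0.46, SE 0.11, adjusted p 0.0202), the cystine importer that, like Cth, supplies the cell with cysteine. Chac1, which degrades glutathione, differed by -0.43 (SE 0.10, adjusted p 0.0169). The others called lower were Ddit3, Atf3, Atf5, Sesn2, Ddit4, Eif4ebp1 and Nupr1, while Cebpb (0.024), Vldlr (-0.13) and Stc2 (-0.25) were not called. With any 1 run left out, Atf4, Atf5 and Trib3 kept their calls, and the other 8 lost theirs without run B, D or F, among other runs. The list was drawn up with results of these arrays known, so it is not independent evidence of its direction.

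**Figure D4:**
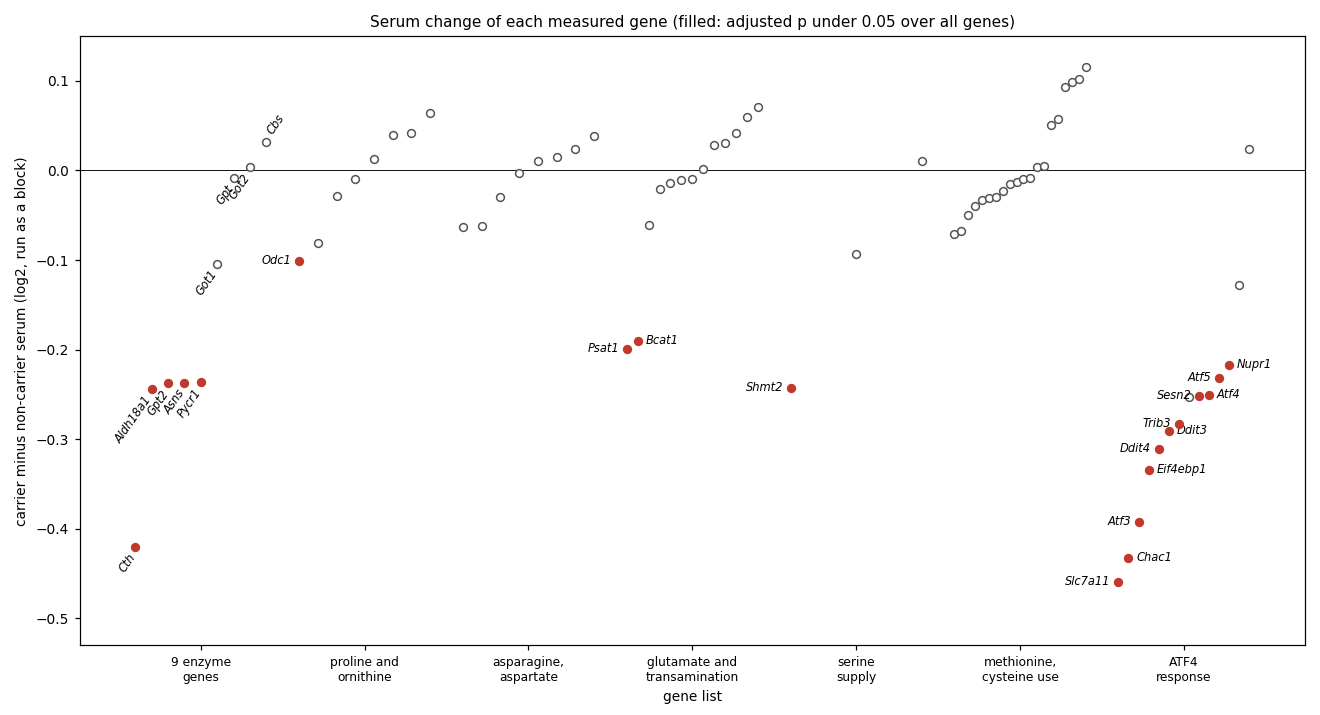
Carrier minus non-carrier difference in log2 intensity with the run as a block (vertical axis) for the 9 enzyme genes and for each measured gene of 6 lists (horizontal axis); filled points passed an adjusted p of 0.05 over all genes. Called genes are 5 of the 9, 4 of the 52 neighbouring enzymes and 11 of the 14 ATF4 response genes, all lower. Of all genes, 1.65% were called lower.

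Markers of cells in the embryoid bodies were compared in the same fit. Of 7 motor neuron and progenitor markers measured, 5 were lower and none was called, with differences from -0.086 to 0.053. Their array means ran from 8.35 to 9.05 with carrier and from 8.62 to 9.05 with non-carrier serum. None of 6 pluripotent cell markers, 8 hepatocyte and endoderm markers and 3 red blood cell markers was called. Of these, 2, 1 and 0 were lower, against 38.9% of all genes, with differences from -0.039 to 0.12. Of 6 astrocyte and radial glia markers 1 was called, Slc1a2, a glutamate transporter, which was lower in all 9 runs (-0.068, SE 0.018, adjusted p 0.0307) but not called in 11 of 25 alternatives, among them quantile normalization, the highest non-carrier array of run B left out, and run A, D, F, HB9MNs or 10-week left out. The array means of these 6 markers ran from 7.70 to 8.30 with carrier and from 7.67 to 8.25 with non-carrier serum. When Olig2, Mnx1, Isl1 and Lhx3 were added to the model, Asns, Aldh18a1, Pycr1, Gpt2, Cth and Got1 were called, but so were 31.2% of all genes, and nothing is read from these calls. The part of Slc1a2 in the differences of the 9 genes was not tested.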

How the data were processed

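Transcriptomes of 59 arrays were measured. Per the study's methods, the authors made the deposited intensity values with RMA in aroma.affymetrix, averaged the exons of each gene, normalized all arrays together and removed outlying arrays by Grubbs' test beforehand; the submitters' processing notes also name Affymetrix Expression Console. Deposited intensities were turned to log2 with a pseudocount of 0 and no filter. Carrier minus non-carrier differences were fitted over all 19613 genes with lmFit and eBayes of limma 3.58.1 (R 4.3.3), two-sided, with a fixed effect for each run, and Benjamini-Hochberg adjustment at 0.05. A serum by run term was fitted in the same way. In simulated data of the serum comparison, with 200 of 19613 genes changed, limma called 52% of genes changed by 1 SD, 100% of those changed by 2 SD and 5 unchanged genes. The simulated noise was normal and independent between genes. It held no batches within run C, no outlying arrays and no serum effect that differed between runs, so these rates need not hold for the real arrays. The number of arrays limits the precision. Genes, lists and markers were chosen with earlier results of these data known. Named were all 9 enzymes, every called gene of the enzyme, ATF4 and marker lists, up to 5 uncalled genes a list that act on the same metabolites, and the 3 genes most like each enzyme (5 for Asns); uncalled genes of the ATF4 list and motor neuron genes named beside them were added after their values were seen. Promoters came from RefSeq. Alternatives covered the block, normalization, filter, pseudocount, variance model, array weights, motor neuron covariates and runs or arrays left out.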

Additional observations from a re-analysis of the deposited data

Results flagged for a closer look

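Of 36 groups of 4 to 10 arrays examined for the 9 genes, 2 held an array far from the others of its run and serum; about 1 in 20 such groups is expected to do so by chance. In run C with carrier serum, the lowest Pycr1 array read 9.05 and the next 9.54, and the highest Got2 array read 12.01 and the next 11.93.

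Serum differences that varied between runs by limma's interaction test were found in the lists around the 9 genes, with adjusted p-values of 0.0358 for Psat1, 0.0413 for Shmt2, 0.0358 for Atf3, 0.00339 for Chac1, 0.0202 for Sesn2, 0.00246 for Eif4ebp1 and 0.00339 for Slc7a11. The lists were drawn up with results of these arrays known. For the 9 genes no p-value is given, since their values by run entered their choice. Without run C, the largest run, the test called 0 genes. By limma, 1324 genes then had an unadjusted p under 0.05, against 1557 with all runs. With run C parted into 2 blocks the test called 28 genes, against 25 with run C whole.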

How the results depend on the processing

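Asns, Aldh18a1, Pycr1, Gpt2, Got1 and Cth were lower with carrier serum under all alternatives run, by -0.35 to -0.17, -0.32 to -0.19, -0.35 to -0.17, -0.29 to -0.19, -0.14 to -0.074 and -0.56 to -0.31. Gpt (-0.060 to 0.059), Got2 (-0.0038 to 0.034) and Cbs (-0.0011 to 0.095) took either sign. Called counts are given as all genes, the 9, and the 52 neighbouring enzymes, against 457, 5 and 4. They were 0, 0 and 0 without a run block (limma, 805, 4 and 4 with an unadjusted p under 0.05), 59, 1 and 0 without runs E and F (2435, 6 and 8), 6126, 6 and 21 with 4 motor neuron genes as covariates, and 2803, 6 and 12 with array weights; why these moved was not tested. With 1 run or array left out they ranged from 106 to 1601, 3 to 6 and 2 to 8, the ends for all genes being without run D and without run C, and 1001 genes were called without the run C array that stood apart. The interaction then took 0 to 54 genes and 0 to 4 of the 9, against 25 and 3. Got1 was called, for example, under quantile normalization, a pseudocount of 16, a trended prior and run C in 2 blocks. Leaving out dim genes removed Gpt, Cth and Cbs from the test. The 3 arrays left out, and every interaction fit without a run or array, were chosen after seeing the data.

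Replicate numbers exist in 3 runs, where same-numbered arrays correlated between -0.13 and 0.33 in their deviations from the mean of their run and serum. Groups this small, centred on their own means, cannot show whether the numbers pair the arrays. With the replicate block in these 3 runs, 513 genes and 5 of the 9 were called, and no call among the 9 changed.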
